A study of Homo sapiens and Mus musculus with 21 samples.

Results

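Mouse thymus cells with transcripts of Nkg7 and Klrd1, a gate meant for natural killer and innate-like lymphocytes, were described from droplet single-cell RNA sequencing of thymocytes. The cells were chosen by their measured counts. A cell had to hold at least 1 UMI (unique molecular identifier, 1 tag per captured transcript) of Nkg7 and at least 1 of Klrd1, no UMI of Rag1 or Cd79a, and fewer than 3 UMIs of Lyz2. The gate was applied to cells with at least 500 detected genes and mitochondrial genes under 10% of their UMIs. It kept 207 of 16079 cells, of which 81 of 8818 came from the control library and 126 of 7261 from the knockout library. The control library, labelled DHX15-flox, came from Dhx15fl/fl mice and the other, labelled DHX15-KO, from Dhx15 knockout mice, all aged 6 weeks. Each genotype had 1 library. No source used here gives the Cre driver of the knockout, the deleted exons, the number of mice behind each library or any pooling. With 1 library per genotype there is no measure of the spread between animals, so no test was made. Intervals are 95% exact binomial (Clopper-Pearson), Poisson or conditional intervals and cover counting error only.

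Nkg7 encodes a membrane protein of cytotoxic granules, and Klrd1 encodes CD94, the partner chain of the NKG2 receptors. Natural killer cells kill target cells through perforin and granzymes under the control of activating and inhibitory receptors, and they need signalling through the IL-2 and IL-15 receptor beta chain, encoded by Il2rb. Innate-like T cells, such as natural killer T cells, some gamma delta T cells and memory-like CD8 T cells, use many of the same genes together with a T cell receptor. Rag1 is the recombinase of developing thymocytes, and DHX15 is a DEAH-box RNA helicase that takes part in the disassembly of spliceosomes and in ribosome assembly.

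Gated cells of both libraries were deep for this dataset and close to each other in depth. Their median was 9645 UMIs in control and 9448 in knockout, against 3710 and 7197 in all cells that passed the quality limits. Their median mitochondrial share was 3.67% and 4.14%. The sums over gated cells were 878833 UMIs in control and 1331974 in knockout. The libraries shared 17 cell barcodes, carried by 0 of the control and 1 of the knockout gated cells. Just inside the gate, 1 control and 3 knockout cells had exactly 1 UMI of each marker. Of cells that met the other limits, 160 control and 535 knockout cells had Nkg7 without Klrd1, 7 and 23 had Klrd1 without Nkg7, and 29 and 32 had both transcripts but also Rag1. The marker pair was rare in cells that should lack it. Among thymocytes with at least 2 Rag1 UMIs, 14 of 6469 control cells (0.216%, interval 0.118 to 0.363) and 15 of 4753 knockout cells (0.316%, interval 0.177 to 0.520) held both transcripts, at median depths of 3446 and 6586 UMIs. Nkg7, with or without Klrd1, was found in 2.29% of those control cells and in 12.8% of those knockout cells.

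Dhx15 itself gave 113 UMIs in control gated cells, a level of 129 CPM (UMIs of the gene per 1000000 UMIs summed over the cells), and 140 UMIs in knockout gated cells, a level of 105 CPM. The knockout to control ratio was 0.817, with an interval of 0.633 to 1.06. In the classes described below it was 0.875 (0.432 to 1.62) in Cd8b1-high cells, on 72 and 12 UMIs. In cells with Ncr1 or Tyrobp it was 0.525 (0.272 to 1.14), on 10 and 82 UMIs, and in the remaining cells 0.518 (0.101 to 1.66). Cd3e-positive gated cells gave 0.832 (0.637 to 1.09) and Cd3e-negative ones 0.361 (0.107 to 1.90), on 3 and 20 UMIs. Dhx15 transcripts were seen in 56 of 81 control and 69 of 126 knockout gated cells. In all other quality-passing cells the level was 182 CPM in control and 100.1 CPM in knockout, a ratio of 0.550 (interval 0.533 to 0.567). Mature T cells outside the gate, with transcripts of S1pr1, Klf2 and Cd3e, gave 0.649 (0.528 to 0.796), and cells with Trdc and Cd3e outside the gate gave 0.442 (0.399 to 0.489). B cells, with at least 3 Cd79a UMIs, gave 1.35 on 18 and 43 UMIs (0.760 to 2.48). Whether the ratio differs between these populations was not tested. Which transcript end was counted and which exons were deleted are unknown here, so a transcript tag outside the deleted part would still be counted and these values do not check the deletion.

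Gated cells were a larger share of the knockout library. They made up 0.919% of quality-passing cells in control (interval 0.730 to 1.14) and 1.74% in knockout (1.45 to 2.06). The cells of the knockout library were deeper, which makes 1 UMI of each marker easier to find. After every cell was thinned to 2000 UMIs, with 532 shallower control and 273 shallower knockout cells left out, the shares were 40 of 8286 (0.483%, interval 0.345 to 0.657) and 92 of 6988 (1.32%, interval 1.06 to 1.61). The marker levels themselves also differed. Nkg7 had a median of 9 UMIs per gated control cell and 21 per gated knockout cell, with highest cells of 51 and 91, and Klrd1 had medians of 3 and 6, with highest cells of 15 and 36. Both genes chose the cells, so these values are a description. A share also depends on how many other thymocytes a library holds, and the number of cells per thymus is not given by these data.

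The gate held different kinds of cells in the 2 libraries, and most cells of both went against the name of natural killer cells. Cd3e was found in 79 of 81 control and 107 of 126 knockout gated cells, and Trdc in 5 and 108. To describe them, the gated cells were split into 4 exclusive classes that were chosen after their values had been seen. Cells with at least 4 Cd8b1 UMIs were called Cd8b1-high. Of the others, those with Ncr1 or Tyrobp formed a class, then those with at least 2 Trdc UMIs, and then the remaining cells. The control library had 50 Cd8b1-high cells of 81 (61.7%, interval 50.3 to 72.3), and the knockout library had 8 of 126 (6.35%, interval 2.78 to 12.1). Cells with Ncr1 or Tyrobp numbered 5 in control (6.17%, 2.03 to 13.8) and 72 in knockout (57.1%, 48.0 to 65.9). The Trdc class had 0 of 81 control cells, which allows a share of up to 4.45%, and 43 of 126 knockout cells (34.1%, 25.9 to 43.1). The remaining cells numbered 26 in control and 3 in knockout. Near the limits, 10 control and 16 knockout gated cells had 1 to 3 Cd8b1 UMIs, 6 and 3 had 4 to 6, and 4 and 7 had exactly 1 Trdc UMI.

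**Figure D1:**
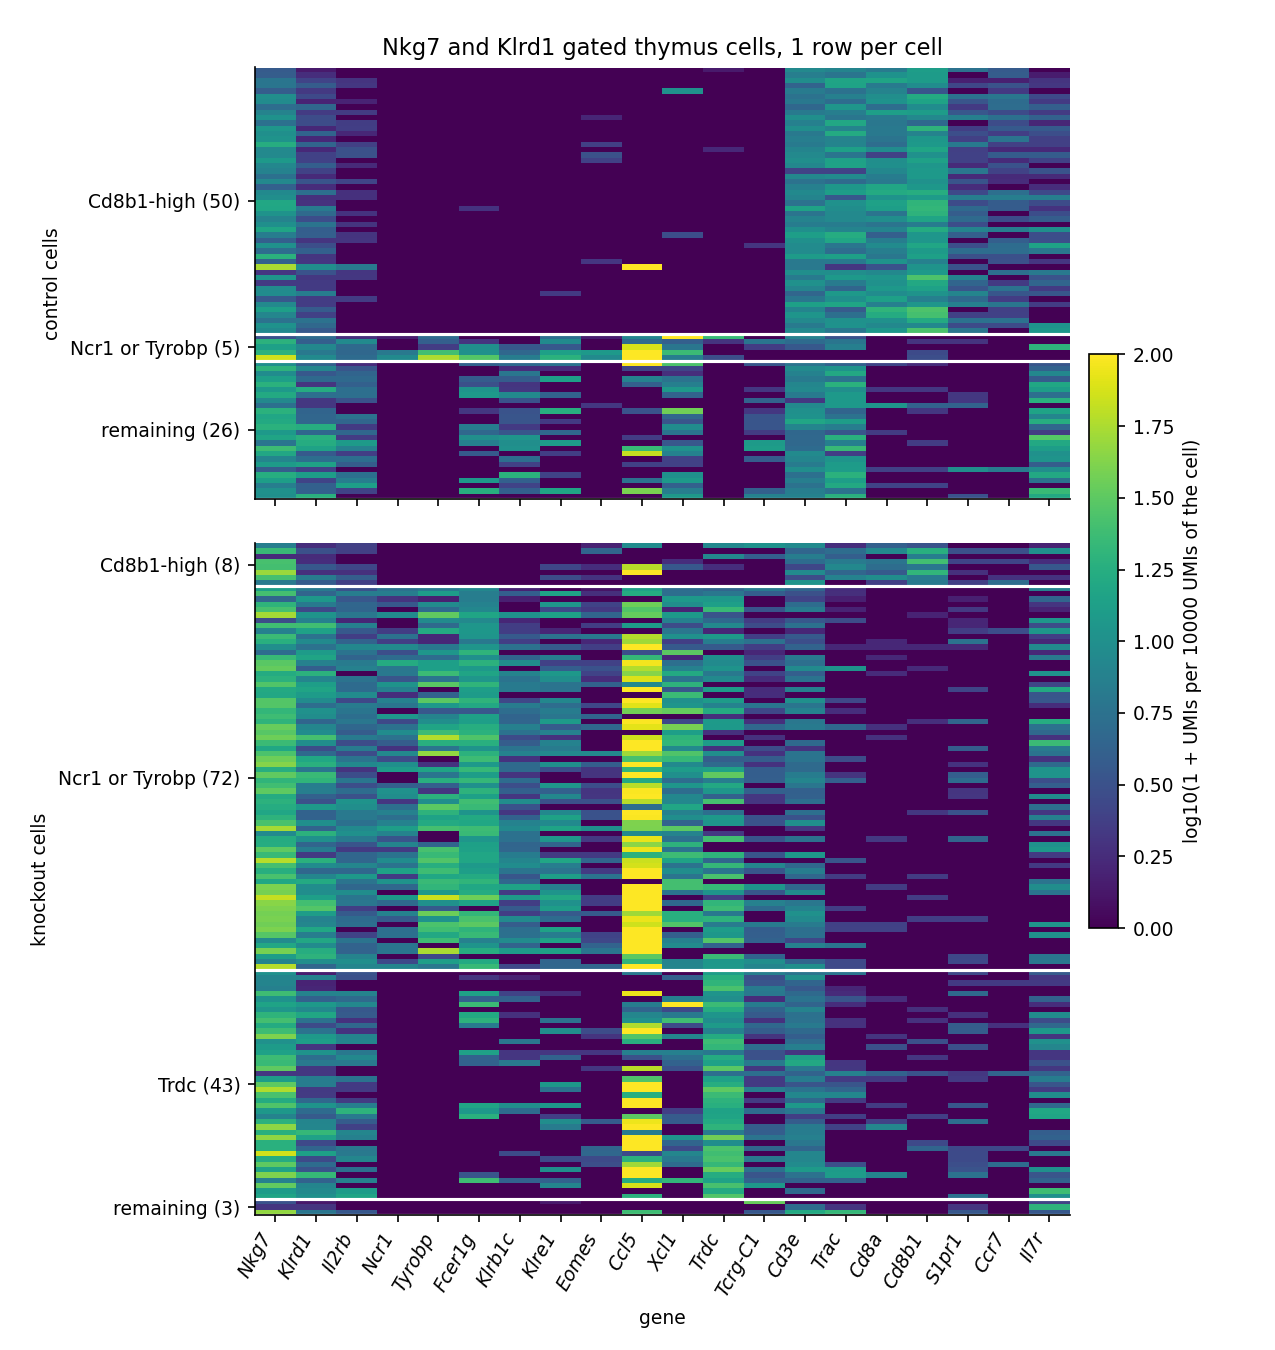
Each line is 1 gated cell (81 control cells above, 126 knockout cells below, grouped by class with the number of cells in brackets), each column a gene, and the colour the log10 of 1 plus UMIs per 10000 UMIs of the cell, with values above 2 drawn as 2. Cd8a and Cd8b1 fill the 50 control Cd8b1-high cells, while Tyrobp, Fcer1g, Ccl5 and Trdc fill most of the 72 knockout cells with Ncr1 or Tyrobp. Cd8b1, Ncr1, Tyrobp and Trdc were used to define the classes.

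Ncr1 and Eomes were found in few control gated cells and in more of the knockout gated cells, while Il2rb was common in both libraries. Il2rb, the shared receptor chain, was found in 49 of 81 control cells (60.5%, interval 49.0 to 71.2) and 110 of 126 knockout cells (87.3%, 80.2 to 92.6). Ncr1, which encodes the activating receptor NKp46, was found in 3 control cells (3.70%, 0.770 to 10.4) and 61 knockout cells (48.4%, 39.4 to 57.5). Eomes, a transcription factor of natural killer and memory CD8 cells, was found in 9 and 54 cells, and its partner Tbx21 in 11 and 44. Among the 21 control and 60 knockout B cells, with median depths of 7032 and 4839 UMIs, 0 held Il2rb, Ncr1, Eomes or Tbx21. Tyrobp, of which 1 UMI is enough for the class rule, was found in 19.0% of control and 18.3% of knockout B cells. Fcer1g was found in 28.6% and 3.33% of them. After thinning each gated cell to 2000 UMIs, Ncr1 was left in 2.47% of control (0.300 to 8.64) and 34.9% of knockout cells (26.6 to 43.9), and Il2rb in 29.6% and 51.6%. The thinned shares of Tbx21 were 7.41% and 7.14%, on 6 and 9 cells, too few to compare, while at full depth, with close median depths, they were 13.6% and 34.9%.

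**Figure D2:**
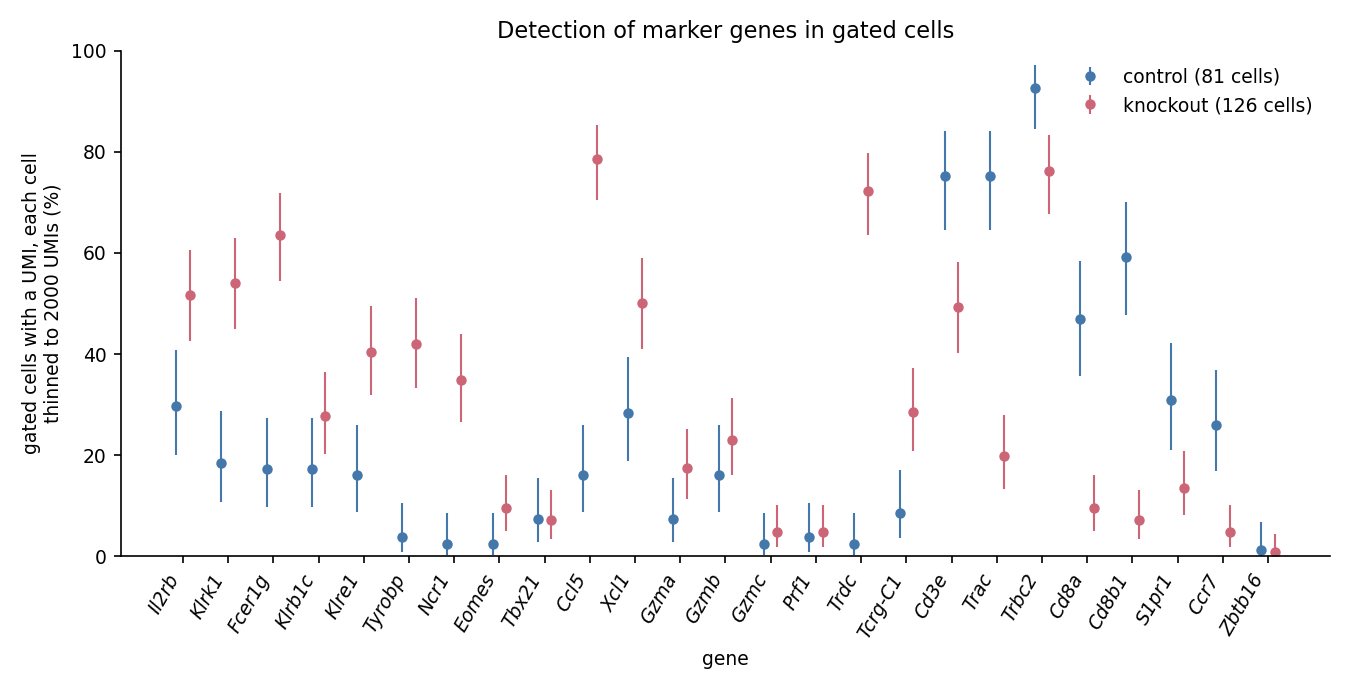
Points give the share of gated cells (y axis, percent) with at least 1 UMI of each gene (x axis) after each cell was thinned to 2000 UMIs, for 81 control and 126 knockout cells, with 95% exact binomial intervals. Ccl5 (16.0% and 78.6%), Trdc (2.47% and 72.2%) and Fcer1g (17.3% and 63.5%) lie higher in knockout, and Trac (75.3% and 19.8%) and Cd8b1 (59.3% and 7.14%) lie higher in control.

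Summed over gated cells, 1372 genes had a mean level of at least 100 CPM over the 2 libraries. Of these, 50 genes (3.64%) were at least 2-fold higher in knockout and 27 genes (1.97%) were at least 2-fold lower, and the median log2 ratio was -0.01. These counts describe size, not a test, and the limit on the mean of both libraries fixes some of them. A gene under 66.7 CPM in 1 library can pass the limit only with a ratio past 2-fold, which holds for 20 of the 50 higher and 9 of the 27 lower genes. The classes differ in number between the libraries, so in the sums the makeup of the gate and the level per cell cannot be told apart. Values within classes are therefore given as well.

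**Figure D3:**
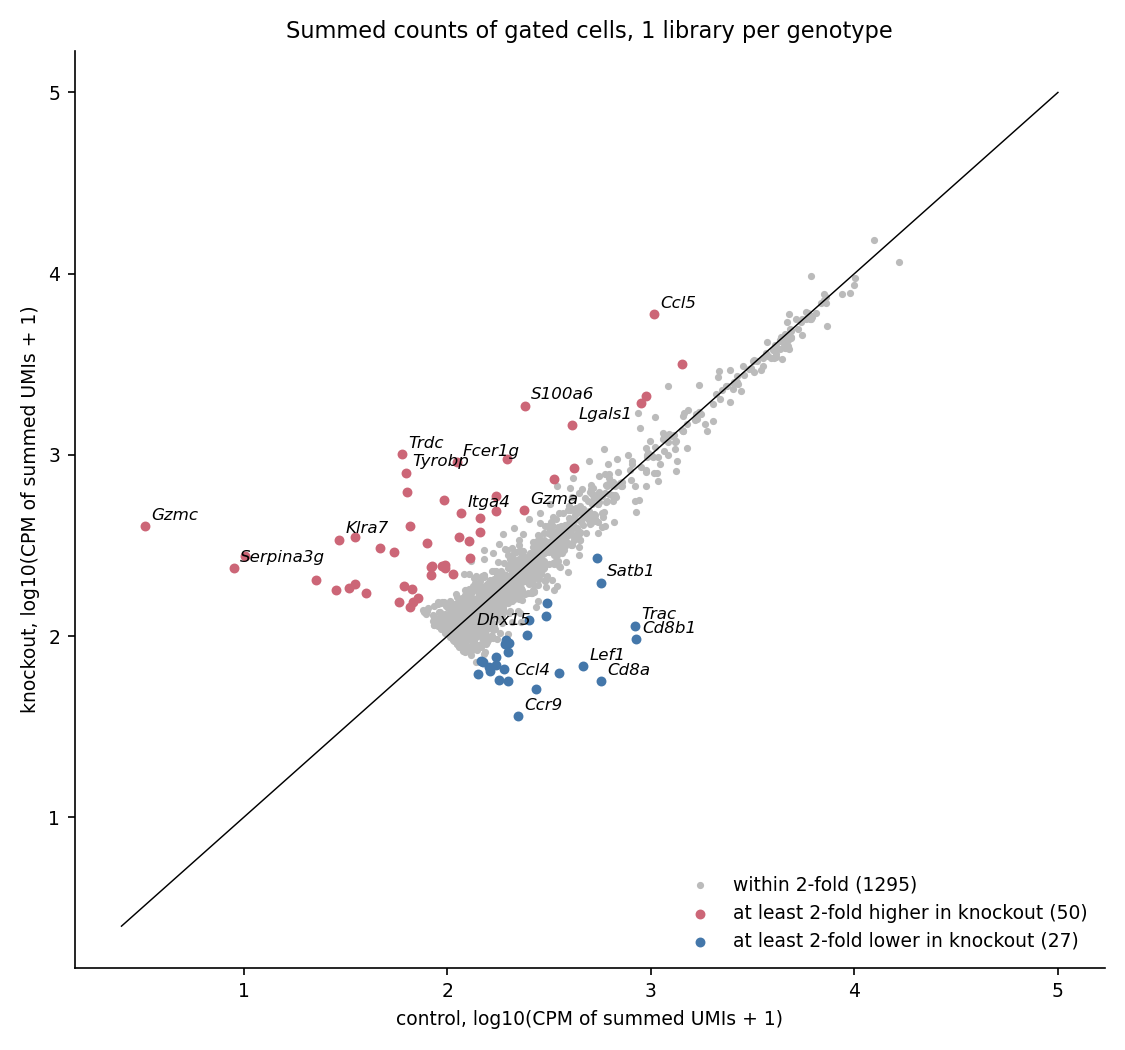
Each point is a gene with a mean of at least 100 CPM, with the log10 of control CPM plus 1 on the x axis and of knockout CPM plus 1 on the y axis (summed UMIs of 81 and 126 gated cells, 1 library per genotype), and the line marks equal levels. Of 1372 genes, 50 lie at least 2-fold above it and 27 at least 2-fold below, with Gzmc farthest to the upper left at 2.28 and 403 CPM.

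The receptors and adaptors of natural killer cells differed in level between the libraries. Of 24 measured members 14 were over the level limit, and 11 of these were at least 2-fold higher in knockout against 1 lower. Over all 1372 genes 3.64% were higher and 1.97% lower. The limit fixed the call of 6 of the 11 (Ncr1, Tyrobp, Klra7, Klra1, Klrc1 and Klrc2), so the count is a description and supports nothing. In knockout the signalling adaptors Fcer1g, Tyrobp and Hcst had the highest levels of the list. Tyrobp, which encodes DAP12, gave 54 UMIs in 5 control cells, 28 of them in 1 cell, and 1062 UMIs in 67 knockout cells, and its level was 61.5 CPM in control and 797 CPM in knockout (ratio 13.0, interval 9.87 to 17.4). Without the highest cell of each library the Tyrobp ratio was 25.5 (17.3 to 39.2). Fcer1g, the common gamma chain of Fc receptors, gave 97 UMIs in 18 control and 1218 UMIs in 85 knockout cells, with a ratio of 8.28 (6.73 to 10.3). Hcst, which encodes DAP10, the adaptor of NKG2D, was found in nearly every gated cell (76 of 81 and 124 of 126) and stayed inside 2-fold at 1.79 (1.59 to 2.03).

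Activating receptors of the same list were higher in the knockout sums. Ncr1 gave 8 control and 367 knockout UMIs, a ratio of 30.3 (15.2 to 70.6), and without the highest cell of each library, 57.2 (22.1 to 211). Klrk1, which encodes NKG2D, was at 173 and 592 CPM (ratio 3.42, interval 2.87 to 4.10), and Klrb1c, which encodes the NK1.1 antigen, at 96.7 and 236 CPM (2.45, interval 1.92 to 3.14). Cd160, a receptor for MHC class I and HVEM, was seen in 35 control and 92 knockout cells with a ratio of 4.13 (3.20 to 5.41). Within Cd8b1-high cells alone its log2 ratio was -0.86, and with them left out 0.93. Cd226, the activating receptor DNAM-1, went the other way at 132 and 82.6 CPM (0.626, interval 0.478 to 0.819), inside the 2-fold limit.

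Receptors that read MHC class I differed among themselves. Klre1 was at 113 and 354 CPM (ratio 3.14, interval 2.52 to 3.94). Klrc1 and Klrc2, near-identical genes for NKG2A and NKG2C that pair with CD94, gave ratios of 4.44 and 2.68. Among Ly49 receptors, Klra7 gave 25 UMIs in 5 control cells and 453 UMIs in 47 knockout cells (ratio 11.96, interval 7.99 to 18.7, and 19.96 without the highest cells), and Klra1 gave 40 UMIs in 6 and 408 in 38 cells (6.73, interval 4.86 to 9.56). Klra9 stood apart: 14 control cells held 152 UMIs and 20 knockout cells held 91, a ratio of 0.395 (0.301 to 0.516). In control 12 of those 14 cells belonged to the remaining class, where Klra9 reached 629.9 CPM. Klra genes are near-identical copies of one another, so reads may be split between them and single-gene values are uncertain.

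Within the gate alpha chain transcripts were higher in control and delta chain transcripts in knockout, and both went the same way outside it. Trac, the constant segment of the alpha chain, was found in 79 of 81 control cells with a median of 8 UMIs, and in 51 of 126 knockout cells with a median of 0. Its level was 837 and 113 CPM, a ratio of 0.135 (0.113 to 0.161). In other cells the Trac ratio was 0.239. Trdc, the constant segment of the delta chain, was found in 5 control cells, with 48 of the 52 UMIs in 1 cell, and in 108 knockout cells with a median of 10 UMIs. Its level was 59.2 and 1005 CPM (17.0, interval 12.9 to 22.9), and without the highest cell of each library the ratio was 211 (82.3 to 776). Trdc was also seen in 16.0% of other control cells and 53.5% of other knockout cells, and in 4.76% and 10.0% of B cells. The Trdc ratio was 2.94 in other cells and 16.1 in mature T cells outside the gate. The gamma chain constant genes Tcrg-C1, Tcrg-C2 and Tcrg-C4 had ratios of 5.46, 6.24 and 10.2. Tcrg-C1 and Tcrg-C2 are near-identical, so their reads may be split between them. With Cd8b1-high cells left out, the log2 ratios of Tcrg-C1 and Tcrg-C2 were 0.75 and 0.93, inside 2-fold. Each of these 3 ratios was over 4 in other cells too, at 4.24, 5.32 and 4.75. Of 11 measured gamma delta T markers 5 were over the level limit, all with control levels low enough that the limit itself fixed a ratio past 2-fold, so no count over them is read.

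The CD3 chains and beta constant genes stayed inside 2-fold. Cd3e was at 661 CPM in control and 426 CPM in knockout, a ratio of 0.644 (0.573 to 0.724), Cd3g at 1350 and 922 CPM, and Trbc2 at 1880 and 1349 CPM (0.718, interval 0.671 to 0.768). The co-receptor genes were lower in knockout: Cd8a was at 571 and 55.6 CPM (0.0973, interval 0.0751 to 0.124), and Cd8b1 at 845 and 95.3 CPM (0.113, interval 0.0927 to 0.136). In other cells the ratios of Cd8a and Cd8b1 were 0.356 and 0.361. In gated cells of both libraries Cd4 was near the bottom of the range, with 9 and 19 UMIs. Over the whole list of receptor and co-receptor genes, 17 of 21 passed the level limit. Of these 4 were at least 2-fold higher (all 4 fixed by the limit) and 3 lower (1 fixed by it). The shares over all 1372 genes were 3.64% higher and 1.97% lower.

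Cytotoxic granule genes were uneven. Of 18 measured genes 8 passed the level limit, and Gzmc and Gzma were at least 2-fold higher in knockout, against 3.64% of all 1372 genes. The level limit fixed the call of Gzmc. Gzmc, a granzyme of strongly activated killer cells, gave 2 UMIs in 2 control cells and 537 UMIs in 13 knockout cells, a ratio of 177 (48.8 to 1467), and 239 of those 537 came from 1 cell. Outside the gate Gzmc was at 0.0204 and 10.6 CPM, so it was rare there and also higher in knockout. Gzma, the granzyme with tryptase activity, gave 208 UMIs in 9 control and 661 UMIs in 37 knockout cells (2.10, interval 1.79 to 2.46). Gzma was found in 15.2% of other control cells and 56.9% of other knockout cells, and in 4.76% and 16.7% of B cells, so its share in gated cells, 11.1% and 29.4%, was below that of the rest of either library. Its level there was 114 and 544 CPM, a ratio of 4.76, and the gated value of Gzma is not read as apart from that background. Gzmb, the granzyme that cleaves caspases, was at 130 and 259 CPM (1.997, interval 1.61 to 2.49), just inside 2-fold. The perforin gene Prf1 was low, with 14 UMIs in 13 control and 38 UMIs in 23 knockout cells, and its ratio of 1.79 had an interval of 0.949 to 3.58. The protease genes Ctsw and Ctsd and the proteoglycan gene Srgn, found in 68 to 76 control cells and 119 to 123 knockout cells, had ratios between 1.39 and 1.75.

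Of 20 secreted factors 6 passed the level limit, with Ccl5 higher and Ccl4 lower past 2-fold. Among all 1372 genes the shares were 3.64% higher and 1.97% lower. The level limit fixed the call of Ccl4. Ccl5 is a chemokine of cytotoxic lymphocytes. It was found in 17 of 81 control cells, 1 of which held 329 of 909 UMIs, and in 103 of 126 knockout cells with a median of 47.5 and a highest cell of 388. Its level was 1034 and 5966 CPM (5.77, interval 5.38 to 6.18). Within the cells with Ncr1 or Tyrobp, the Ccl5 level was 5536 CPM in 5 control cells and 6944 CPM in 72 knockout cells. Xcl1, the chemokine lymphotactin, was found in 29 and 90 cells, with a ratio of 1.38. A single control cell held 300 of its 488 UMIs, and without the highest cell of each library the ratio was 3.07 (2.62 to 3.61). Ccl4 was the opposite case: its ratio of 0.281 (0.211 to 0.370) rested on 1 control cell with 163 of 174 UMIs, and without the highest cells it was 3.41 (1.77 to 7.20). Ltb, encoding lymphotoxin beta, was at 845 and 484 CPM (0.573). The interferon gamma gene Ifng gave 17 UMIs in 7 control cells and 50 UMIs in 35 knockout cells, both below the level limit. Il17a, Il10, Il13 and Csf1 had no UMI in gated cells of either library, and Csf2 had 0 in control and 11 in knockout. The knockout level of Csf2 was 2.42 times a floor of 3 UMIs over the control sum, without the counting error of its 11 UMIs.

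Of 19 cytokine receptor genes 5 passed the level limit and 2 were at least 2-fold higher, against 3.64% of all 1372 genes. The limit fixed the call of Il18r1. Il2rb was at 145 and 373 CPM (2.58, interval 2.12 to 3.16) and Il18r1, the ligand-binding chain of the IL-18 receptor, at 60.3 and 189 CPM (3.14, interval 2.33 to 4.30). The log2 ratio of Il18r1 was 0.11 with Cd8b1-high cells left out and 0.80 after thinning, both inside 2-fold. The partner chain gene Il18rap was below the level limit with 27 and 183 UMIs (4.47, interval 2.97 to 6.97). Il2rg, the common gamma chain, and Il7r, the IL-7 receptor chain, stayed near 1, at 0.826 and 0.937. Among Cd8b1-high cells Il18r1 was found in 2 of 50 control and 1 of 8 knockout cells.

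Of 15 migration and adhesion genes over the level limit, 3 were at least 2-fold higher in knockout and 3 lower, and of 12 lineage transcription factors 1 was higher and 2 lower. The limit fixed 1 of the 3 higher and 2 of the 3 lower migration genes, and the 1 higher transcription factor. Over all 1372 genes 3.64% were higher and 1.97% lower, and the list counts are descriptions only. Of 7 markers of mature single positive T cells over the limit, 3 were lower past 2-fold (Cd8a, Cd8b1 and S1pr1) and 0 higher. The limit fixed 2 of these 3 calls, those of Cd8a and S1pr1. S1pr1, the sphingosine phosphate receptor that mature thymocytes use to leave, was at 190.0 and 64.6 CPM (0.340, interval 0.259 to 0.443), and Ccr9, a homing receptor for thymus and gut, at 221 and 35.3 CPM (0.160, interval 0.114 to 0.221). Ccr7, which guides thymocytes into the medulla, was below the level limit with 152 UMIs in 44 control and 21 UMIs in 10 knockout cells. Lef1, a transcription factor of naive T cells, was at 464 and 67.6 CPM (0.146, interval 0.115 to 0.183). With Cd8b1-high cells left out its log2 ratio was -0.87, inside 2-fold. Satb1, a chromatin organiser of thymocytes, was seen in 80 of 81 control and 87 of 126 knockout cells (0.346, interval 0.297 to 0.403). Its ratio in other cells was 0.406. Id3 was at 198 and 80.3 CPM in gated cells, while Id2, which counters the same E proteins in innate lymphocytes, was at 615 and 886 CPM (1.44). Tcf7, Runx3, Ets1 and Ikzf1 stayed inside 2-fold, from 0.752 to 1.04, while Stat4, which relays IL-12 signals, was higher at 2.22 (1.65 to 3.04). Among adhesion genes, Itga4 gave 116 and 476 CPM (4.10, interval 3.32 to 5.11), and Itgb1, its partner chain, a ratio of 2.54. Itgae, the integrin that binds E-cadherin, was lower at 0.419, and Ccr2, a receptor for inflammatory chemokines, higher at 5.65 (3.86 to 8.55).

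Among the genes with the largest ratios were the S100 genes S100a6 and S100a4, which encode calcium-binding proteins, the galectin genes Lgals3 and Lgals1, and Anxa2. S100a6 was at 240.1 and 1871 CPM (7.79, interval 6.77 to 9.01) and was found in 21 of 81 control and 108 of 126 knockout cells. S100a4 had a ratio of 9.90, Lgals3 9.45, Anxa2 5.90 and Lgals1 3.57. These 5 genes were higher in knockout mature T cells outside the gate as well. The ratios there were 15.5 for S100a6, 7.07 for S100a4, 1.85 for Lgals3, 4.75 for Anxa2 and 3.53 for Lgals1. Serpina3g, a serine protease inhibitor, gave 7 UMIs in 3 control cells and 315 UMIs in 77 knockout cells, a ratio of 29.7 (14.2 to 74.5), or 95.4 (26.2 to 792) without the highest cells. In mature T cells outside the gate the Serpina3g ratio was 11.0 (2.69 to 96.2). Ptms, which encodes parathymosin, had a ratio of 5.75 in gated cells and 0.398 in other cells. Hopx, a homeodomain cofactor of effector lymphocytes, had a ratio of 2.92, and Cd7, a surface protein of T and natural killer cells, 2.03. On the lower side, Rgs10, a regulator of G protein signalling, was at 0.173 (0.134 to 0.222). Igfbp4, which encodes an insulin-like growth factor binding protein, was at 0.184 (0.138 to 0.242), and 0.120 without the highest cells. Among the lower genes that met the naming rule were Zfp36l1, an mRNA decay factor (0.419), Mxd4, a partner of MAX (0.456), Rnf167 (0.465) and Arl6ip5 (0.495). These 4 were also lower in other cells, from 0.406 to 0.568. The predicted gene Gm10073 was at a ratio of 4.82, and in other cells at 7.24.

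Genes of RNA handling and growth lay near the background of all genes. Of 10 spliceosome core genes, 18 SR and hnRNP splicing regulators and 10 ribosome biogenesis genes over the level limit, 0 were past 2-fold in either direction, with median log2 ratios of 0.01, -0.11 and -0.02. Single values were close to 1, such as Snrpg at 0.971, Sf3b1 at 0.841, Srsf3 at 0.911, Ncl at 1.16 and Npm1 at 0.975. Likewise 0 were past 2-fold of the listed 79 ribosomal protein genes (median log2 ratio -0.08), 12 mitochondrial genes, 9 interferon-stimulated genes, 13 MHC class I genes, 8 glycolysis genes, 10 heat shock genes, 4 cell death regulators and 3 p53 targets. H2-Q7 was at 1.87, and H2-Q6, an MHC class I gene that was not on the list, was past 2-fold at 2.75 (2.06 to 3.73). H2-Q genes are near-identical copies, so their single values are uncertain. Proliferation genes had 2 of 7 lower, against 1.97% of all 1372 genes. These were Top2a (0.494) and Tuba1b (0.495), and 91 of the 270 control Top2a UMIs were in 1 cell. Without the highest cell of each library they were inside 2-fold, at 0.601 and 0.501. Mki67 was found in 9 of 81 and 19 of 126 cells.

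**Figure D4:**
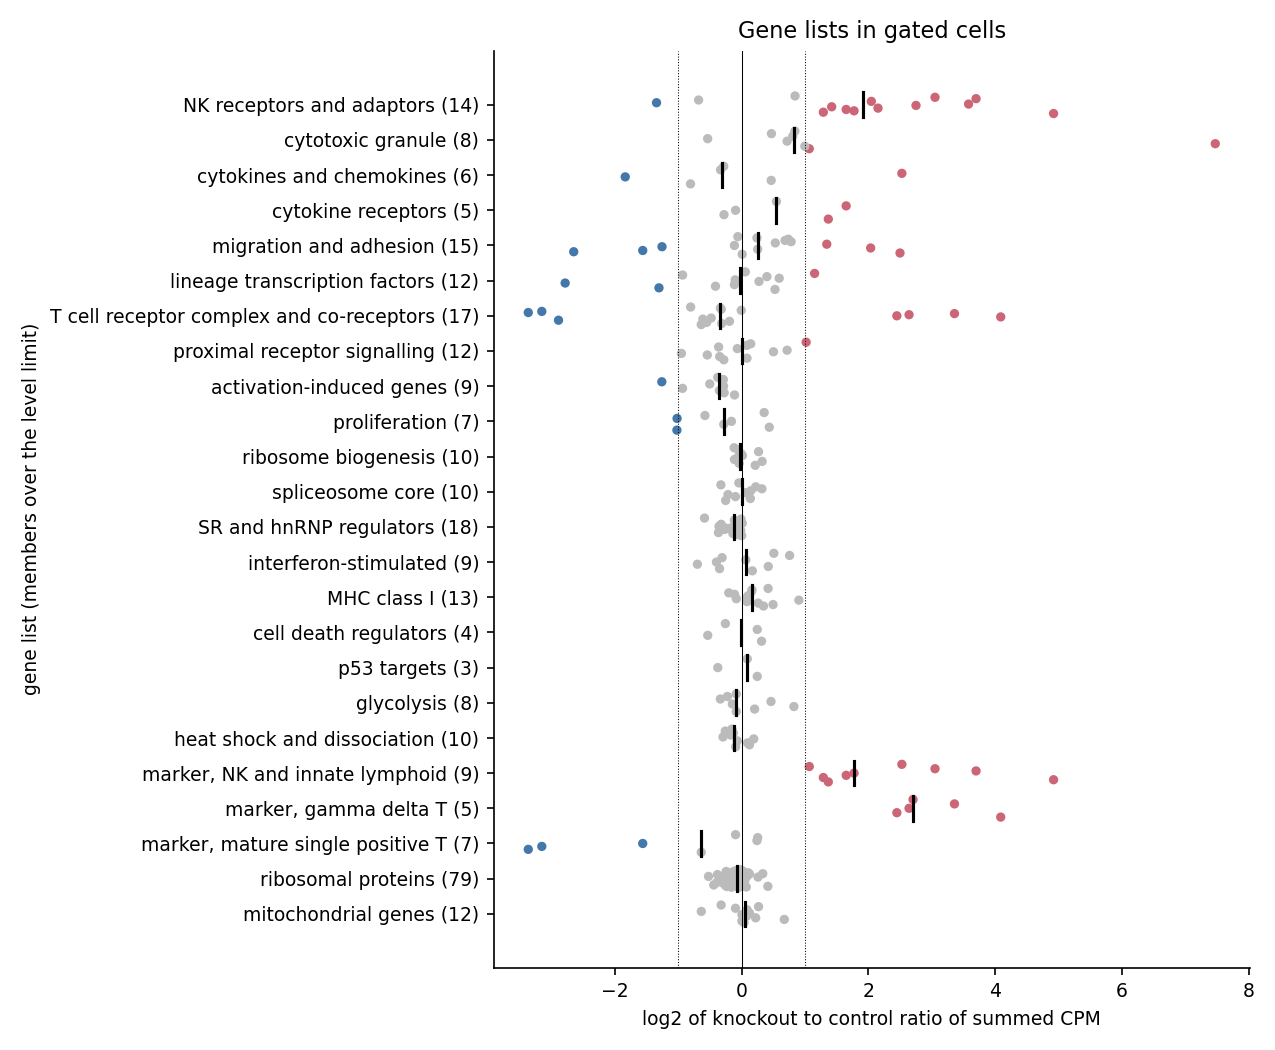
Each point is a member of a gene list with a mean of at least 100 CPM, placed by the log2 of its knockout to control ratio of summed CPM in gated cells (x axis), with the list and its number of such members on the y axis, a bar at the list median and dotted lines at 2-fold. Most natural killer receptors and adaptors and all 5 gamma delta T markers lie to the right, many of them fixed there by the level limit, and splicing, ribosome and MHC class I lists stay between the dotted lines.

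The 50 control and 8 knockout Cd8b1-high cells were not alike. The control cells held genes of mature CD8 T cells: Trac in 50 of 50 cells, Lef1 in 49, S1pr1 in 43 and Ccr7 in 43, and Klrb1c, Ncr1, Tyrobp and S100a4 in 0. Klrd1 in these cells was 206 CPM, a lower level than the 648 CPM of the remaining control cells. The 8 knockout cells had Trac in 7 at 344 CPM against 824 CPM, Lef1 in 3 at 68.8 CPM against 614 CPM, and Lgals1 in 7 at 1299 CPM against 451 CPM. Trdc was found in 3 of the 8 and Dntt, the terminal transferase of immature thymocytes, reached 602 CPM from 2 of them. A cell of these 8, with 35743 UMIs, held 27 UMIs of Trdc and 34 of Tcrg-C1, and another held Trdc but no Cd8a, so sums over the 8 mix kinds of cells. Ncr1, Tyrobp, Fcer1g and Klrb1c had no UMI in the 8 knockout cells.

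The 26 remaining control cells carried a different set. Trac was found in 26 of 26, Cd3e in 26, Id2 in 25 at 1775 CPM, Il7r in 24 at 919.6 CPM, Klrb1c in 22 at 359 CPM, Il2rb in 22 and Xcl1 in 22. Fcer1g was found in 13 cells, Klra9 in 12, Gzmb in 14 and Maf in 14. Zbtb16, the transcription factor PLZF of natural killer T cells, was found in 6 of them at 27.6 CPM, and 0 had a Trdc UMI, while Ncr1 and Tyrobp were absent by the class rule. Over all gated cells the natural killer T receptor segments Trav11 and Traj18 gave 5 and 4 UMIs in control and 0 in knockout. The remaining class of the knockout library had 3 cells left over by the class rule, too few to compare. Klrb1c had no UMI in these 3, and 1 of them held 91 Tcrg-C1 UMIs but no Cd3e or Trac.

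The class with Ncr1 or Tyrobp held 5 control and 72 knockout cells. In knockout, Fcer1g was found in 70 of 72, Il2rb in 70, Id2 in 71, Klrb1c in 65, Ccl5 in 65, Klrk1 in 55, Klre1 in 55, Cd244 in 51 and Klra7 in 45. Trdc was found in 62 of the 72 with a median of 8.5 UMIs, Cd3e in 56 with a median of 4, Trbc2 in 70 and Trac in 21. Most of these cells therefore held Cd3e and Trdc transcripts beside Fcer1g. Among the 61 knockout gated cells with Ncr1, 46 also had Cd3e, 51 had Trdc, 56 had Tyrobp and 14 had Trac. The control class was small, with 300 of its Xcl1 UMIs in 1 cell: Xcl1 was at 6321 CPM against 987 CPM in knockout, Ccl4 at 3259 CPM against 75.5 CPM, and Gzma at 2002 CPM against 675 CPM. Ncr1 within the class was 157 CPM in control and 462 CPM in knockout. The class rule used Ncr1 and Tyrobp, so their levels here are a description only.

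The 43 knockout cells of the Trdc class had Trdc, which the class rule used, at 1655 CPM. Cd3e was found in 41 of them, Tcrg-C2 in 38, Tcrg-C4 in 37 and Trgv2 in 33. They shared Ccl5 in 34, Il2rb in 33 and S100a6 in 33 with the previous class, while Klrb1c was found in 12, Fcer1g in 15 and Eomes in 9. Gzmb reached 495 CPM there and 184 CPM in the class with Ncr1 or Tyrobp. Cxcr6, a homing receptor of resident lymphocytes, was at 342 CPM against 59.1 CPM, and Ikzf2 at 495 CPM against 299 CPM. The segment gene Tcrg-V6 had no UMI in gated cells of either library.

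**Figure D5:**
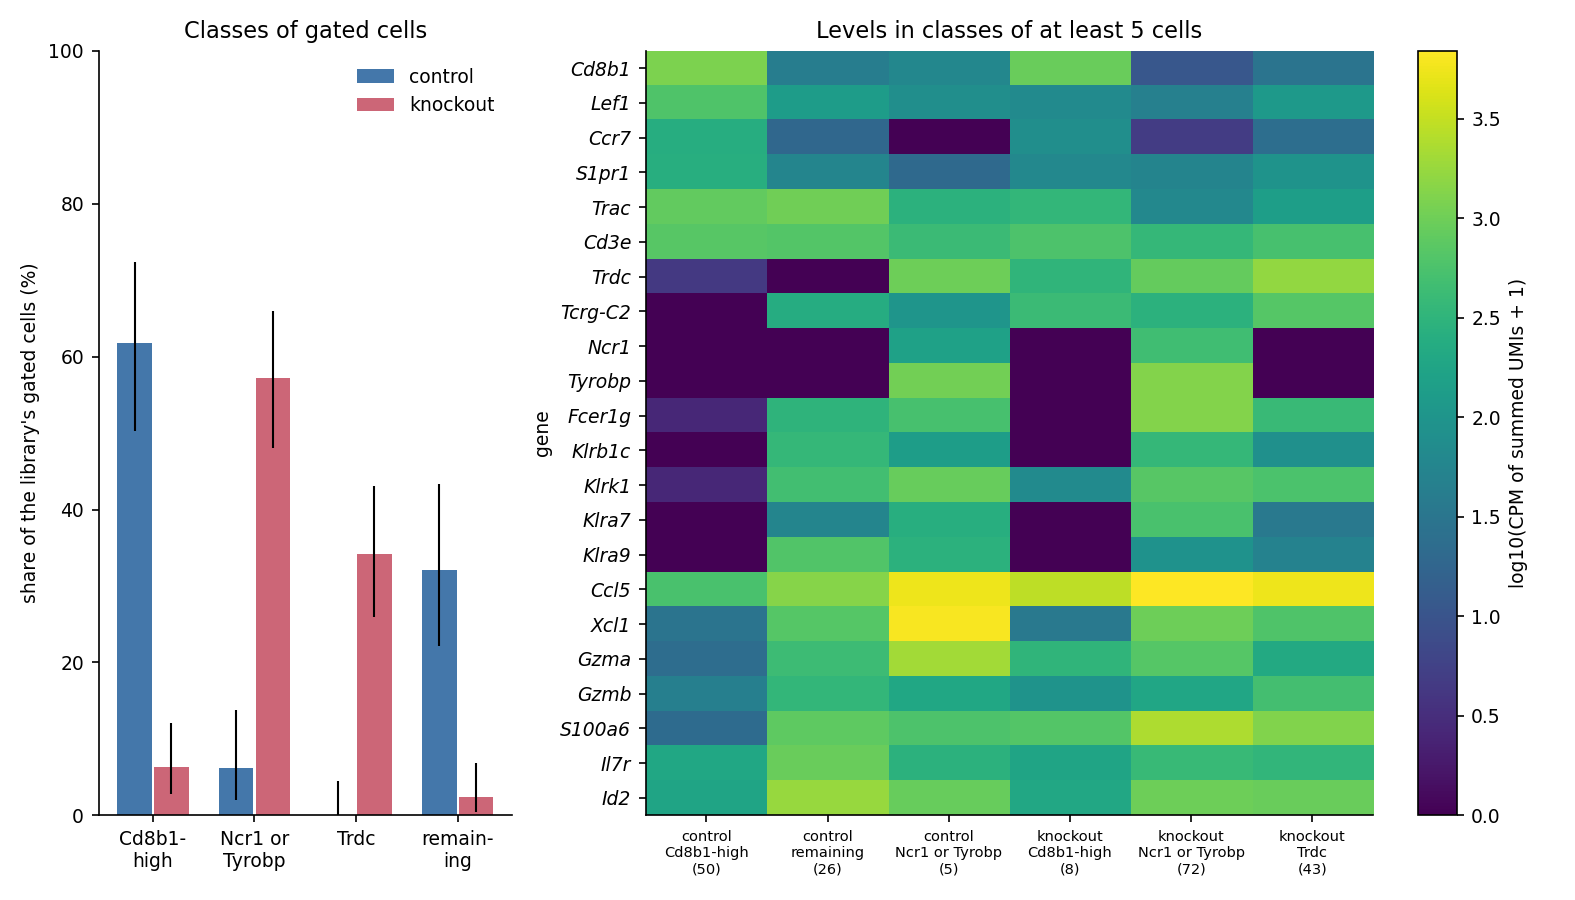
Left, the share of each library's gated cells (y axis, percent) in each class, with 95% exact binomial intervals. Right, the log10 of CPM plus 1 of 22 genes (y axis) in the classes of at least 5 cells (x axis, number of cells in brackets). Cd8b1-high cells are 61.7% of control and 6.35% of knockout gated cells, and cells with Ncr1 or Tyrobp 6.17% and 57.1%.

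Split by Cd3e, the gate held 79 positive and 2 negative control cells and 107 positive and 19 negative knockout cells. The positive share was 97.5% in control (91.4 to 99.7) and 84.9% in knockout (77.5 to 90.7), and with each gated cell thinned to 2000 UMIs it was 61 of 81 (75.3%) and 62 of 126 (49.2%). Cd3e was also seen in 14.3% of control and 10.0% of knockout B cells. The 2 negative control cells hold 10456 UMIs in all, so their values carry wide intervals. In the knockout library, Tyrobp was at 594 CPM in positive and 1994 CPM in negative cells (ratio of negative to positive 3.35, interval 2.95 to 3.81), Gzma at 293 and 1694 CPM (5.78, interval 4.94 to 6.75), Ncr1 at 234 and 518 CPM (2.21), and Ccr2 at 144 and 482 CPM (3.35). Each was also higher in the 2 negative control cells, where Ncr1 was at 669 CPM, against 1.15 CPM in positive cells. Klra4 was on the same side in both libraries, with 1243 CPM from the 2 control cells and 264 CPM in negative knockout cells, and Lgals3, Serpinb9 and Klrb1f followed.

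Genes lower in Cd3e-negative cells included the partner chains. Cd3d was at 1019 and 114 CPM in positive and negative knockout cells (0.112, interval 0.0698 to 0.170) and Cd3g at 1038 and 238 CPM (0.230, interval 0.167 to 0.308). Ly6c2, Bcl11b, Ikzf2 and Ltb were lower as well, at 0.153, 0.326, 0.389 and 0.442. In the knockout library Trdc was found in 99 of 107 positive and 9 of 19 negative cells, and Tcrg-C2 in 87 and 4. Gzmc was concentrated in the negative cells, with 462 UMIs from 3 of 19 cells and 75 UMIs from 10 of 107. Trbc2 was found in 16 of 19 negative knockout cells, at 1088 CPM.

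Knockout and control were also set side by side within each Cd3e class. Among Cd3e-positive cells the ratio of Tyrobp was 39.7 (23.1 to 74.96), of Fcer1g 9.17 (7.27 to 11.7), of Ccl5 7.90 (7.31 to 8.55), of Trdc 19.5 (14.7 to 26.3) and of S100a6 7.17 (6.22 to 8.31). Ncr1 had 1 UMI in the 79 positive control cells and a ratio of 204 with an interval of 36.2 to 8071. Cd8b1 was at 0.129, Trac at 0.154 and Lef1 at 0.159. Among Cd3e-negative cells, 19 against 2, several of these ratios were under 1: Ncr1 was at 0.774 (0.362 to 1.97), Tyrobp at 0.509 (0.368 to 0.720), Fcer1g at 0.798 (0.502 to 1.35), Ccl5 at 0.168 (0.143 to 0.198) and Gzma at 0.206 (0.162 to 0.264). Gzmc was at 25.02 (4.47 to 990.4), and Cd160 was at 0 in control and 331 CPM in knockout. The 2 control cells set each of those values, and whether the ratios differ between the Cd3e classes was not tested.

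Summed per library, the gated cells differed from T cells outside the gate in genes the gate did not use. Ccl5 was at 13.9 CPM in control mature T cells and 65.0 CPM in knockout mature T cells, against 1034 and 5966 CPM in gated cells. Ncr1 had no UMI in the 222 control and 174 knockout mature T cells. Il2rb was at 44.1 and 48.3 CPM there. In the 210 control and 949 knockout cells with Trdc and Cd3e outside the gate, Il2rb was at 13.3 and 8.23 CPM. S100a6 was at 15.8 and 65.1 CPM in those Trdc cells. Most control gated cells held no Ccl5 or Ncr1. Control Ccl5 came from 17 of 81 gated cells, and 1 Cd8b1-high cell held 329 of its 909 UMIs. In the 50 control Cd8b1-high cells Ncr1 had no UMI and Il2rb was at 60.6 CPM, near its level in control mature T cells. S100a6 was at 34.6 CPM in control and 536 CPM in knockout mature T cells, so a high knockout level of S100a6 was also present outside the gate. Trdc was at 91.5 and 1472 CPM in those mature T cells, so the mature T cells of the 2 libraries were not alike either. A cell could belong to both sets outside the gate.

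Summed markers of the lineages below were lower in gated than in other cells of each library, except the macrophage and monocyte list in control. That list was at 137 CPM in gated and 76.7 CPM in other control cells, and at 104 and 115 CPM in knockout. The gate itself kept out Cd79a and limited Lyz2, which are on these lists. The B cell markers Ms4a1, Ebf1 and Pax5, and by the gate Cd79a, had no UMI in either library, with the marker list summing to 304 CPM in control and 313 CPM in knockout, mostly Ighm. Of 10 macrophage and monocyte markers 4 in control and 5 in knockout were at 0, among them Csf1r and C1qc in both, with sums of 137 and 104 CPM, mostly Ctss. The regulatory T cell factor Foxp3 was at 0 in both libraries, and the list summed to 96.7 and 172 CPM. Lists for ILC2 and ILC3 (6.83 and 20.3 CPM), neutrophils (7.97 and 8.26 CPM), erythroid cells (1.14 and 0 CPM) and stroma and epithelium (52.3 and 36.8 CPM) were small. Dendritic cell markers summed to 10.2 and 121 CPM. Of these, Cd74 gave 75 UMIs in 10 knockout cells, 50 of them in 1 cell, and Itgax, which natural killer cells also express, gave 44 UMIs in 32 knockout cells.

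Transcripts of immature thymocytes were present at low counts and differed between the libraries. Dntt gave 12 UMIs in 11 control cells and 150 UMIs in 27 knockout cells, 51 of them in 1 cell, while 82.8% of other control cells and 90.4% of other knockout cells held it. Ly6d gave 12 UMIs in 10 cells and 162 UMIs in 30 cells, 43 of them in 1 cell. Rag2 was found in 5 gated cells of each library. Of the gated cells, 1 control and 6 knockout cells were among the 5% of their library with the highest Scrublet doublet scores, and the part of joined cells in these values was not tested. The Y-linked genes Ddx3y, Uty, Eif2s3y and Kdm5d had no UMI in gated cells, and Xist was at 1321 CPM in control and 1081 CPM in knockout gated cells.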

How the data were processed

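The authors deposited UMI counts per gene and cell barcode for 2 thymus libraries, written by Cell Ranger 6.0.1 per the file headers; the submitters' processing notes list Cell Ranger 6.0.2, Scanpy 1.7.1 and mm10. How barcodes were filtered is not given in the sources used here. Quality limits and gate are in the report. UMIs of gated cells were summed per library and divided by the sum (CPM). Of 67 symbols with several identifiers the first was used. Named genes were Dhx15, the gate genes, Il2rb, Cd3e, the 15 largest ratios each way past 2-fold with mean CPM of at least 100 and the same direction in Cd3e-positive and Cd3e-negative cells (no V, D or J segments, Gm or Rik symbols), up to 8 members per list by level, list members at 0, and for the Cd3e classes the 12 largest each way by the smaller ratio of the 2 libraries with mean CPM of at least 100 in both; other genes and the 4 classes were chosen after their values were seen. The gate, members and lists were chosen with earlier results of these data known. Scanpy 1.11.5 ran Scrublet, which marked 0 control cells and 1 knockout cell as doublets and so did not work. Ratios and intervals were tested on simulated Poisson sums without cells, so that test does not cover UMIs concentrated in single cells. Analyses used Python 3.11.15 with scipy 1.17.1, and edgeR 4.0.16 for TMM factors. Alternatives changed cell limits, gate, depth, scaling, level limit and fold.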

Additional observations from a re-analysis of the deposited data

How the results depend on the processing

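With 1 library per genotype no replicate could be left out. No paired analysis was possible because no result comes from a test. The planned removal of Scrublet doublets was not run, since the caller marked almost no cell; without the 5% of cells with the highest scores, an alternative chosen after seeing the data, the Dhx15 ratio was 0.795 and 55 genes were higher and 29 lower. The gated share of control was 0.635% with at least 2 UMIs of each marker, 0.556% with Il2rb required and 0.483% after thinning to 2000 UMIs, where knockout was 1.32%; gating and Cd3e both thinned, 70% and 51.1% were Cd3e-positive. The Dhx15 ratio was 0.483 after thinning, on 9 and 10 UMIs, and 0.548 as the geometric mean of the Cd3e classes, which rests on 3 control UMIs in Cd3e-negative cells. The counts of genes at least 2-fold higher and lower, 50 and 27, were 94 and 59 with a level limit of 50 CPM, 25 and 9 with 200 CPM, 93 and 84 at 1.5-fold and 28 and 9 at 3-fold. The higher count was 31 as the geometric mean of classes. The lower count was 82 after thinning, 45 without ribosomal protein and mitochondrial genes, and 78 in Cd8b1-high cells alone, which are 8 in knockout. The log2 ratio of Ccl4 was 1.87 without the 5% of cells with most UMIs and 0.39 in Cd8b1-high cells alone, where that of Cd160 was -0.86; without the Cd8b1-high cells 6 of 24 named genes (Tcrg-C1, Tcrg-C2, Cd160, Il18r1, Lef1 and Rnf167) came inside 2-fold. The log2 ratio of Trdc was 7.88 without the 5% of cells with most UMIs. The cause of these shifts was not tested. At this depth a gene with no UMI could hold up to 3.41 CPM in control and 2.25 CPM in knockout.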
